A study of Arabidopsis thaliana with 3 samples.

Results

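MIKC* genes form a small branch of the MADS-box family of plant transcription factors. Their proteins carry the DNA-binding MADS domain at the N terminus and a keratin-like K domain, which holds MADS proteins together in dimers. In Arabidopsis they fall into an S clade (AGL66, AGL67, AGL104) and a P clade (AGL30, AGL65, AGL94), and an S-clade protein pairs with a P-clade protein to bind DNA. They are known for their role in the late male gametophyte, where such dimers direct the change of gene expression during pollen maturation. The 5 genes described here, chosen by locus identifier, are AGL30 (AT2G03060), AGL65 (AT1G18750), AGL94 (AT1G69540), AGL66 (AT1G77980) and AGL104 (AT1G22130). Of these, 3 had a row among the 19777 genes of the authors' deposited comparison table, and all 3 belong to the P clade. AGL66 and AGL104, the S-clade genes of the set, had no row and were not analysed.

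The table compares Arabidopsis thaliana sep1 sep2 sep3 triple mutants that express SEP3Δtet with the sep1 sep2 sep3 triple mutant alone, so that mutations in all 3 SEP genes are shared by both genotypes. SEP3Δtet is a form of the floral MADS protein SEPALLATA3 altered in the region through which MADS dimers join into tetramers, and the series title ties it to the splice variant SEP3.3. The transgenic group holds 3 independent lines with 1 library each, made from poly(A) RNA of inflorescence meristems and young flower buds; which promoter drives the transgene, and how many control libraries there were, is not stated in the labels or series text. Per the labels, the oldest buds differed between lines, reaching stage 11 in line 1, stage 12 in line 2 and stage 13 in line 3, a difference that cannot be told apart from the lines; the series text names stage 11 as the upper limit throughout.

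Every value below is 1 fitted value per gene for the whole comparison. No value per library was used, so neither the lines' own levels nor the sequencing depth can be given. SEP3, the gene of the transgene, had a log2 fold change of 2.27 in the authors' deposited table. The floral identity genes AP1 and AG averaged 7.81 and 6.31 log2 CPM (log2 of counts per 1000000 counted reads) there, so RNA of floral tissue was present. In RNA of whole buds, fewer cells of a type and less RNA per cell cannot be told apart.

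The members are related but distinct in sequence. The first 90 coding bases of each, which encode the start of the MADS domain, are shown because they define the family and because they bear on whether reads of one member could be counted for another. They come from the RefSeq annotation of TAIR10.1 and are written 5′ to 3′; capitals mark the 43 positions at which all 5 genes carry the same base.
AGL30 (chr2:901614-901703, plus strand): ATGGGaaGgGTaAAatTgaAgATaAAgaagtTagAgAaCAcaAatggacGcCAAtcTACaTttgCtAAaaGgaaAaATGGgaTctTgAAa
AGL65 (chr1:6467266-6467355, plus strand): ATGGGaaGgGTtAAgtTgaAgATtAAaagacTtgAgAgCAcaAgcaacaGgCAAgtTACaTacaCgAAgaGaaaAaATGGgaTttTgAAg
AGL94 (chr1:26147070-26147159, minus strand): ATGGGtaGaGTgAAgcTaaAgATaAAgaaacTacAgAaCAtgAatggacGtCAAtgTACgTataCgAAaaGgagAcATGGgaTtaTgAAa
AGL66 (chr1:29316978-29317067, minus strand): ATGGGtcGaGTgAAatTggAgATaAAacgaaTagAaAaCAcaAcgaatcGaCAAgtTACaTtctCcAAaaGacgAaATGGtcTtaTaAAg
AGL104 (chr1:7814170-7814259, minus strand): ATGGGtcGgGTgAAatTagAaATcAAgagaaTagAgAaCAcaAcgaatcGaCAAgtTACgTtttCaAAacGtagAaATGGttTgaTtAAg

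The S-clade pair AGL66 and AGL104 was the most alike of the 10 pairs over this stretch, with 82.2% of the bases identical. Among the measured P-clade genes, AGL30 and AGL94 shared 76.7%, AGL30 and AGL65 71.1%, and AGL65 and AGL94 66.7%. Pairs taken across the clades lay between 63.3% and 70%, and the 70% that AGL65 shared with AGL66 lay between its shares with AGL30 and AGL94. The longest run of identical bases between the transcripts of any 2 measured members was 15 bp, and between AGL66 and AGL104 it was 38 bp.

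All 5 genes have a first coding exon of 185 bp. In the transcript with the longest coding sequence, AGL30, AGL65, AGL66 and AGL104 have 10 coding exons and AGL94 has 9. The P-clade genes have the longer coding sequences, 1161 bp in AGL30, 1242 bp in AGL65 and 1104 bp in AGL94, against 999 bp in AGL66 and 1008 bp in AGL104. AGL30 lies on chromosome 2 from 901061 to 904149 on the plus strand. The other 4 lie on chromosome 1, AGL65 from 6466667 to 6469984 on the plus strand and, on the minus strand, AGL104 from 7812211 to 7814345, AGL94 from 26145001 to 26147751 and AGL66 from 29314841 to 29317186. No other annotated gene overlaps any of the 5 in TAIR10.1.

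**Figure D1:**
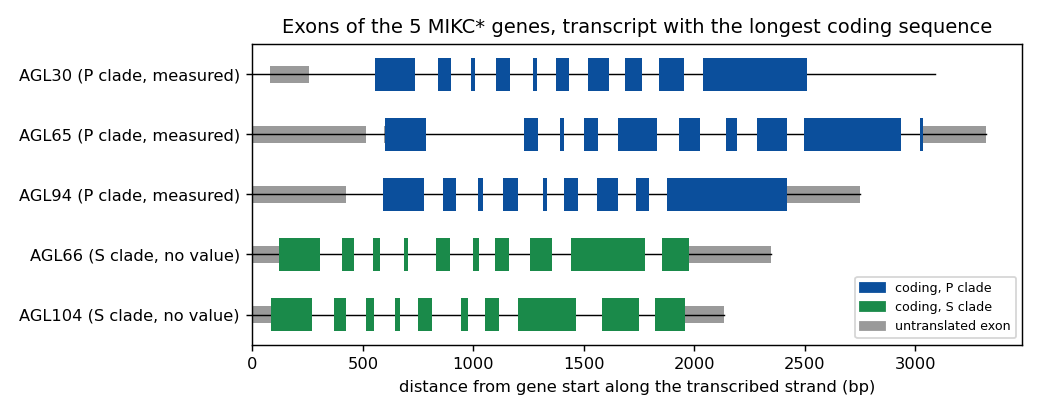
Exons of the 5 MIKC* genes in the TAIR10.1 annotation, with the distance from the gene start in bp on the horizontal axis; wide bars are coding, narrow grey bars are untranslated, and thin lines are introns or parts outside this transcript. The first coding exon has the same length (185 bp) in all 5 genes, and the P-clade genes (blue) are longer than the S-clade genes (green).

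None of the 3 measured MIKC* genes differed between the SEP3Δtet lines and the triple mutant at an adjusted p of 0.05 in the authors' deposited table (edgeR's quasi-likelihood F-test with Benjamini-Hochberg adjustment over all genes). The count of called members was 0 of 3 in each direction, beside a background of 17.5% of all genes called, 11.6% higher and 5.88% lower. With so few members, a count of 0 does not set them apart from that background. At an unadjusted p of 0.05, 1 of the 3 passed, beside 29.7% of all genes. Their log2 fold changes ran from -0.18 to 0.78 with a median of 0.42, beside a median of -0.001 over all genes.

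AGL30 came nearest to a call. Its log2 fold change was 0.42 in the authors' deposited table, a fitted level 1.34-fold as high in the SEP3Δtet lines as in the triple mutant (F = 8.74, unadjusted p = 0.0121, adjusted p = 0.0633 by edgeR's test). The largest unadjusted p of any called gene was 0.00874, so AGL30 missed the threshold by a small margin. It ranked at position 3791 of the 19777 genes by p, where calls ended at 3457. It was also the most abundant measured member, at an average of 3.70 log2 CPM (13.02 CPM) over all libraries of the fit.

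AGL94, the least abundant measured member, had a larger fold change than AGL30 and weaker evidence. Its log2 fold change was 0.78 in the authors' deposited table, a 1.71-fold higher fitted level that did not pass edgeR's test (F = 2.73, unadjusted p = 0.125, adjusted p = 0.308). Its average abundance was -0.009 log2 CPM (0.994 CPM), with only 3.63% of the genes in the table below it.

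AGL65 was the 1 measured member with a negative value. Its log2 fold change was -0.18 in the authors' deposited table (F = 0.886, unadjusted p = 0.365, adjusted p = 0.592 by edgeR's test), a fitted level 0.882-fold that of the triple mutant. Its average abundance was 2.27 log2 CPM (4.83 CPM). Differences between the fold changes of the 3 members were not tested, because the table holds no value per library. They cannot be read as opposite responses, since neither sign rests on a call.

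To compare the members' levels with each other, the average CPM was divided by the length of all annotated exons of each gene in TAIR10.1. Per kilobase of exon, AGL30 averaged 5.58 CPM, AGL65 2.23 CPM and AGL94 0.522 CPM. The order AGL30, AGL65, AGL94 is the same with and without the length correction, and whether neighbours in it differ beyond their spread is not known from 1 average per gene. RNA of all 3 P-clade genes was therefore counted in the libraries of the fit, and these averages cover both genotypes.

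**Figure D2:**
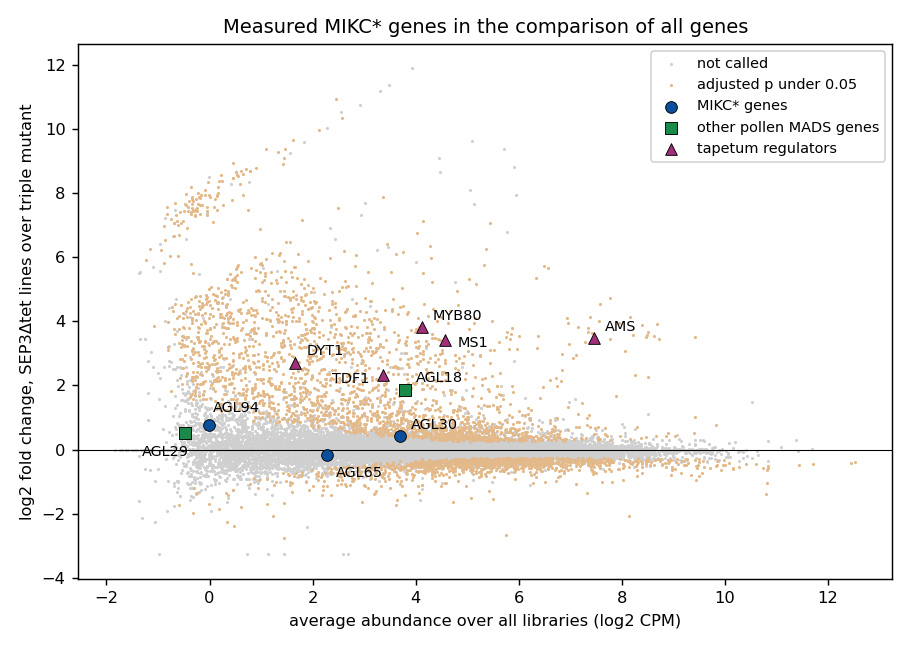
Average abundance (log2 CPM, horizontal) against log2 fold change of the SEP3Δtet lines over the triple mutant (vertical) for the 19777 genes of the table, with called genes in orange and the others in grey. AGL30, AGL65 and AGL94 (blue circles, -0.18 to 0.78) lie in the grey band or at its edge. AGL18 (1.87) and the 5 listed tapetum regulators (2.32 to 3.82) lie among the called genes. The lists were chosen with earlier results of these data known.

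How large a change could be called depended on abundance, so each member was set beside the genes within 0.5 log2 CPM of it. Among the 3087 genes around AGL30 (itself included), 15.2% were called, and the smallest called change was 0.30 in size on the log2 scale. A change at least as large as that of AGL30 was seen in 617 of them, of which 437 were called (70.8%). These 617 genes include much larger changes, as the called genes around AGL30 had a median size of 0.83. The 70.8% is thus not the share called at the size of AGL30 itself. By the same count, 32.2% of 1204 genes around AGL65 and 63.3% of 550 genes around AGL94 were called.

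Around AGL65, 22.1% of 1755 genes were called and the smallest called change was 0.53 in size. The value of AGL65 (-0.18) lay below that size. Around AGL94, 30.6% of 1139 genes were called, but none of them with a change under 1.19 in size, so that a change like that of AGL94 (0.78) was called for no gene of like abundance. The lack of a call for AGL65 and AGL94 thus shows that no change of the sizes called around them was seen, and not that their levels were equal in both genotypes.

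**Figure D3:**
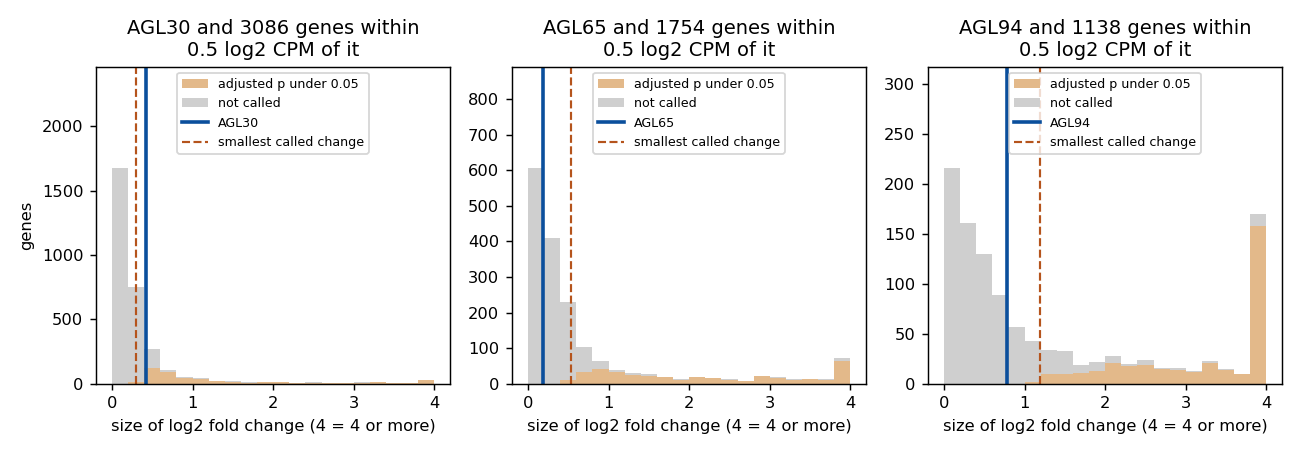
Size of the log2 fold change (horizontal, values of 4 or more in the last bar) against the number of genes (vertical) for the genes within 0.5 log2 CPM of AGL30, AGL65 and AGL94; orange bars are called genes, grey bars stacked on them are not called, the blue line is the member and the dashed line the smallest called change. The member lies above the smallest called change for AGL30 (0.42 and 0.30) and below it for AGL65 (-0.18, beside 0.53 in size) and AGL94 (0.78 and 1.19).

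The nearest measured genes along the chromosome were not called for any measured member. They are too few to be set apart from the 17.5% called over all genes. The nearest measured gene on each side of AGL30 was EMB93 (log2 fold change 0.02) and the mediator subunit gene MED8 (-0.23) in the authors' deposited table, neither called. Beside AGL94 were the expansin gene AT1G69530 (0.17) and the disease resistance gene AT1G69550 (-0.16), and beside AGL65 the loci AT1G18745 (0.30) and AT1G18773 (-0.59), none called in the authors' deposited table. Of the nearest measured genes on both sides of AGL66 and AGL104, AT1G22090 was the 1 called. It lies 14785 bp from AGL104, with 4 annotated genes between them. Its log2 fold change was 4.33 (adjusted p = 6.8e-06 by edgeR's test in the authors' deposited table). It averaged 2.10 log2 CPM, below its log2 fold change, so the size of the fold is uncertain.

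MADS proteins bind CArG boxes, of which 2 forms were looked for in the promoters, from 250 bp before to 50 bp after each gene start on TAIR10.1. MIKC* dimers are known to prefer the MEF2-type CArG box, which begins with CTA and ends with TAG around an A/T core. Floral MADS proteins such as SEP3 bind the SRF-type CArG box, with CC and GG around a longer A/T core. Both forms read the same way on either strand, so 1 pass covers both. The MEF2-type box was found in the promoter of 1 of the 5 MIKC* genes, AGL104, and in 2.49% of 27443 promoters of protein-coding genes. The match is shown because MIKC* proteins bind this form; capitals mark the box, which lies 97 to 88 bp before the gene start.
AGL104 (chr1:7814423-7814452, minus strand): gtcaaaaattCTAATTTTAGttcctattaa

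The SRF-type box was found in 0 of the 5 promoters, beside 3.05% of all promoters. With 1 mismatch allowed in the core, the 5 genes gave the same matches, beside 4.66% of all promoters for the MEF2 type and 9.16% for the SRF type. These are matches of letters in a short window and say nothing of binding. The gene with the match is not among the measured ones, so no fold change stands beside it.

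Of 4 other MADS genes known from pollen, 2 were measured and 1 of these was called, beside 17.5% of all genes. So few genes do not set that list apart from the share over all genes. AGL18, a gene of the MIKCc type that is expressed in pollen and acts with AGL15 to repress flowering, was called higher in the authors' deposited table, with a log2 fold change of 1.87 (F = 135, adjusted p = 7.9e-06 by edgeR's test). Its average abundance, 3.79 log2 CPM, was close to that of AGL30. AGL29, a type I MADS gene of pollen, had a log2 fold change of 0.52 and was not called (adjusted p = 0.581 in the authors' deposited table, edgeR's test), at -0.47 log2 CPM. The abundance of AGL29 is below that of AGL94, around which no change under 1.19 in size was called. AGL67, the remaining S-clade gene, and AGL33 had no row and were not analysed.

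Among the MIKCc-type genes, the large MADS branch that holds the floral identity genes, 29 of 39 were measured, of which 10 were higher, 4 lower and 15 not called, with a median log2 fold change of 0.16. That is 48.3% called and 34.5% higher, beside 17.5% and 11.6% over all genes. The 10 higher genes include SEP3, the gene of the transgene. The 29 measured genes also include SEP1 and SEP2, which are mutated in both genotypes. AGL15, the partner of AGL18, rose (1.42, adjusted p = 8.6e-04 by edgeR's test), while ANR1, a gene of root nitrate responses, fell (-0.77, adjusted p = 0.0387) in the authors' deposited table. MAF3, a relative of the floral repressor FLC, fell as well (-0.40, adjusted p = 0.0443 by edgeR's test, in the authors' deposited table). Besides SEP3, the called members of smallest p include AP1, SHP1, FLC and STK (log2 fold changes of -1.003, 1.53, 3.57 and 6.09 in the authors' deposited table). FLC and STK averaged 1.79 and 2.85 log2 CPM, below their log2 fold changes, so the size of these 2 folds is uncertain. A further 19 genes named AGAMOUS-like or MADS-box in the table stand in neither branch. Of these, 8 were higher (42.1%, beside 11.6% over all genes), 0 lower and 11 not called. Their median abundance was only 0.19 log2 CPM, where calls of higher were more common. Among the 1139 genes around AGL94, 337 were higher and 11 lower. The 42.1% is thus not read as particular to MADS genes. All 51 genes named AGAMOUS-like or MADS-box were ranked from the highest log2 fold change to the lowest. AGL94 stood at position 16, AGL30 at position 23 and AGL65 at position 39. No test of MIKC* against MIKCc-type genes was made, as 3 members are too few to describe a difference.

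Many of the listed regulators of pollen development and genes of mature pollen had no row. A row was found for 42.9% of the listed pollen transcription factor genes and 44.8% of the mature pollen genes. Of the 27443 protein-coding genes whose promoters were searched, 19285 had a row. Of 14 pollen transcription factor genes, 6 were measured, 1 was higher, 0 were lower and 5 were not called, with a median log2 fold change of 0.16. The 16.7% called lies near the 17.5% called over all genes. The 1 that rose was MYB101, one of the MYB genes of the pollen tube that act in sperm release (log2 fold change 9.96, adjusted p = 4.0e-05 by edgeR's test in the authors' deposited table). Its fitted fold exceeds its average abundance (2.12 log2 CPM) by far, as happens where one genotype has hardly any reads, and gives no bound on the change. WRKY2 (0.19), BZIP18 (0.12), DUO3 (-0.09), BZIP34 (-0.57) and the VQ motif gene AT3G18360 (1.31, adjusted p = 0.0773 by edgeR's test) were not called in the authors' deposited table.

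Of 29 mature pollen genes, 13 were measured, and 6 of these were higher, 0 lower and 7 not called, with a median log2 fold change of 0.95. That is 46.2% higher, beside 11.6% over all genes. The share covers only genes with a row, and their median abundance was 1.56 log2 CPM. Genes of low abundance were called higher more often than 11.6%: 335 of 1755 around AGL65 and 337 of 1139 around AGL94. The 46.2% is thus not set against a background of like abundance. SPIK, an inward potassium channel of pollen, rose by 3.37 (adjusted p = 1.2e-05 by edgeR's test) in the authors' deposited table. The leucine-rich repeat genes AT1G49490 (1.38), AT2G15880 (1.35) and AT4G33970 (2.14), the receptor-like kinase gene AT4G39110 (0.95) and the actin gene ACT12 (9.31) rose as well in the authors' deposited table. The fitted fold of ACT12, at an average of 1.33 log2 CPM, gives no bound on its change, as with MYB101. SPIK and AT4G33970 averaged 1.56 and -0.08 log2 CPM, below their log2 fold changes, so the size of these folds is uncertain. The part of the oldest bud stages, which differ between lines per the labels only, in these rises was not tested. The arabinogalactan protein genes of pollen AGP6 (0.49) and AGP11 (0.10), the pollen tube calcium channel gene CNGC18 (0.09) the sugar transporter gene STP9 (-0.29), the receptor kinase gene ANX1 (-0.17) and the leucine-rich repeat gene AT3G19020 (-0.24) were not called in the authors' deposited table. VGD1, a pectin methylesterase gene of pollen tube growth, was not called either, with a log2 fold change of 7.48 at -0.66 log2 CPM (adjusted p = 0.0958 by edgeR's test in the authors' deposited table), a fitted fold that gives no bound. AGP6 and AGP11 averaged 0.05 and -0.44 log2 CPM there, in the range of AGL94. The 2 measured sperm cell genes, HAP2 (0.67) and GEX1 (-0.45), were not called either in the authors' deposited table. So few genes do not set that list apart from the 17.5% called over all genes.

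The tapetum is the anther cell layer that feeds the developing pollen. The 5 regulator genes listed for it were chosen with earlier results of these data known. All 5, DYT1 (log2 fold change 2.71), TDF1 (2.32), AMS (3.47), MYB80 (3.82) and MS1 (3.42), rose in the authors' deposited table (100% higher, beside 11.6% over all genes). Their adjusted p lay between 2.8e-07 and 0.0086 by edgeR's test, and their median log2 fold change was 3.42. Because the list was chosen with results known, that median is not set against the MIKC* genes. DYT1 averaged 1.66 log2 CPM, below its log2 fold change, so the size of its fold is uncertain. The part of a changed share of anther tissue in the values of the tapetum and MIKC* genes was not tested. Nor was that of the oldest bud stages, which differ between lines per the labels only.

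**Figure D4:**
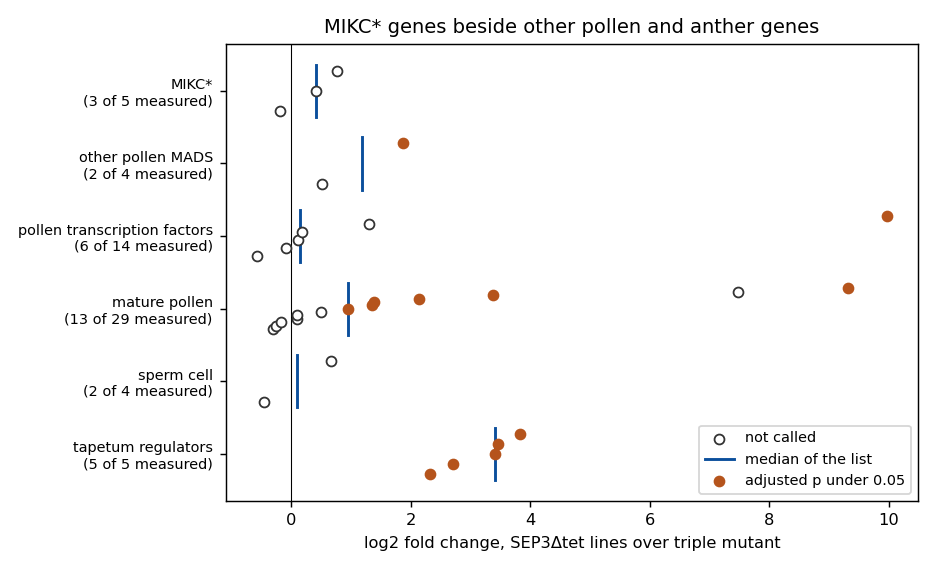
Log2 fold change of the SEP3Δtet lines over the triple mutant (horizontal) for each measured gene of 6 lists (vertical), with filled points for called genes, open points for genes not called and a blue bar at the median of each list. The 3 MIKC* genes are open and lie between -0.18 and 0.78. All 5 listed tapetum regulators are filled and lie between 2.32 and 3.82. The lists were chosen with earlier results of these data known.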

How the data were processed

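Per the submitters' processing notes, the tools were STAR for alignment, featureCounts for counting and edgeR for the comparison, with TAIR10 as the genome. Versions, strand handling, shared reads and any filter on low counts are not stated there. The authors deposited 1 table with a log2 fold change and an average log2 CPM per gene, an F statistic (a score without a fixed range), a p-value and an adjusted p-value. A positive log2 fold change is taken to mean a higher level in the transgenic lines, since the comparison's name gives them before the triple mutant. Adjusting the deposited p-values by Benjamini-Hochberg over all 19777 rows gave the deposited adjusted p-values, to within 1.8e-15. Genes with an adjusted p under 0.05 are called. The depth of the libraries is unknown, and the p-values cover only how far the libraries in the authors' fit varied.

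Members were matched by locus. The members and gene lists were chosen with earlier results of these data known. Named genes are the 5 members, AGL67, AGL33, AGL18, AGL29, SEP3, up to 6 called genes of smallest p per list and the nearest measured genes; others, and the comparison of coding bases, were added after values were seen. Likeness of pattern to other genes cannot be measured over 1 comparison. The comparison of protein sequences planned for the members was not run. Of 100 list entries, 93 symbols are among the RefSeq names of their locus; the rest are given by locus or not named. Gene models and bases are from RefSeq TAIR10.1, joined by locus identifier only. The adjustment and motif code was checked on simulated data. Python 3.11.15, pandas 2.3.3 and scipy 1.17.1 were used.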

Additional observations from a re-analysis of the deposited data

How the results depend on the processing

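The count of called MIKC* genes stayed at 0 in each direction at an adjusted p of 0.01, by Bonferroni adjustment, among genes of at least 1 log2 CPM and for changes of 1 or more in size on the log2 scale; AGL94 falls below the abundance filter. With that filter the adjusted p of AGL30 was 0.0671 and that of AGL65 0.593. Centring on the median of genes of at least 4 log2 CPM (-0.04) gave log2 fold changes of 0.46 for AGL30, -0.14 for AGL65 and 0.82 for AGL94, with no change of sign. At an adjusted p of 0.01, 2 MIKCc-type genes were lower, 2 mature pollen genes were higher, and of all genes 1482 were higher and 419 lower. By Bonferroni adjustment, 2 MIKCc-type genes were higher and 1 lower, 1 mature pollen gene and 2 tapetum regulators were higher, and of all genes 481 were higher and 14 lower. For changes of 1 or more in size on the log2 scale, 1 MIKCc-type gene and 74 of all genes were lower. These settings are stricter by construction. Leaving out each line was not run, because no values per library were used. No paired analysis was possible because the comparison has 1 deposited value per gene.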
